A study of Mus musculus with 8 samples.

Results

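The genes described here break down the triglyceride store of the fat cell or coat its lipid droplet, and their transcripts were measured in inguinal white adipose tissue (ING WAT, the subcutaneous depot of the groin) of C57BL/6j mice. The members were taken by symbol and are 10 of the 38364 genes with summed values in the deposited table, represented by 34 of its 91969 transcripts. They are the lipases *Pnpla2*, *Pnpla3*, *Lipe* and *Mgll*, the lipase regulators *Abhd5* and *G0s2*, and the droplet proteins *Plin1*, *Plin4*, *Plin5* and *Cidec*. Poly(A)+ RNA from mice m1, m49, m138 and m145 at postnatal day 21 (PN21, weaning, n = 4) was compared with that from mice m35, m106, m114 and m125 at postnatal day 98 (PN98, young adulthood, n = 4). The labels name no altered allele and no agent at either age. Food was limited in the night before dissection. The diet of the sequenced PN98 mice, which could be the control or the western style diet of the study, is not given in the sources used here. By the paper, another diet was in use at PN21, and either of these came later. Diet thus differed between the ages in either case and cannot be told apart from age. Each library came from a different mouse by its label, so that the spread below is a spread between mice.

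In the fat cell, fatty acids leave the triglyceride one after the other. ATGL, the product of *Pnpla2*, cuts the first fatty acid, hormone-sensitive lipase (HSL, *Lipe*) cuts the diglyceride and monoglyceride lipase (*Mgll*) the monoglyceride. The protein of *Abhd5* (CGI-58) activates ATGL and that of *G0s2* inhibits it, whereas perilipin 1 (*Plin1*) holds CGI-58 at the droplet surface until protein kinase A phosphorylates it. *Plin4* and *Plin5* encode further perilipins, the latter known from oxidative tissues, and *Cidec* (FSP27) encodes a protein that enlarges droplets by fusion. *Pnpla3* encodes a relative of ATGL with triglyceride hydrolase activity. White fat stores large droplets and releases fatty acids on fasting.

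Transcripts of 2 droplet coat genes and 1 lipase rose from PN21 to PN98. *Cidec* was 4.46-fold and *Plin4* 4.38-fold higher, and *Lipe* was 1.98-fold higher. *Pnpla2* and *Mgll* each had a 1.80-fold higher level with no overlap between the ages, and did not pass the test. *Abhd5*, *G0s2*, *Pnpla3*, *Plin1* and *Plin5* overlapped between the ages. Values are FPKM, which count fragments relative to the length of the transcript and the size of the library, summed over the transcripts of a gene. The test was limma on log2(FPKM + 1) of the 16094 genes whose mean FPKM reached 1, with Benjamini-Hochberg adjustment over all of these and a threshold of 0.05. All 10 members passed the filter on low values through their levels at both ages. Of all genes tested, 2.33% were higher at PN98 by this rule and 2.91% were lower, against 3 and 0 of the 10 members. At an unadjusted p under 0.05, 5 of the 10 members were higher and 0 lower, against 1316 higher and 3059 lower of the 16094 genes. Unadjusted counts of other lists below stand against the same numbers. In 6.06% of all genes all PN98 mice lay above all PN21 mice, against 5 of the 10 members. The members and lists were chosen with earlier results of these data known. Their counts beside those of all genes are therefore a description and not a test. More RNA per cell and more cells of a type cannot be told apart in whole tissue.

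**Figure D1:**
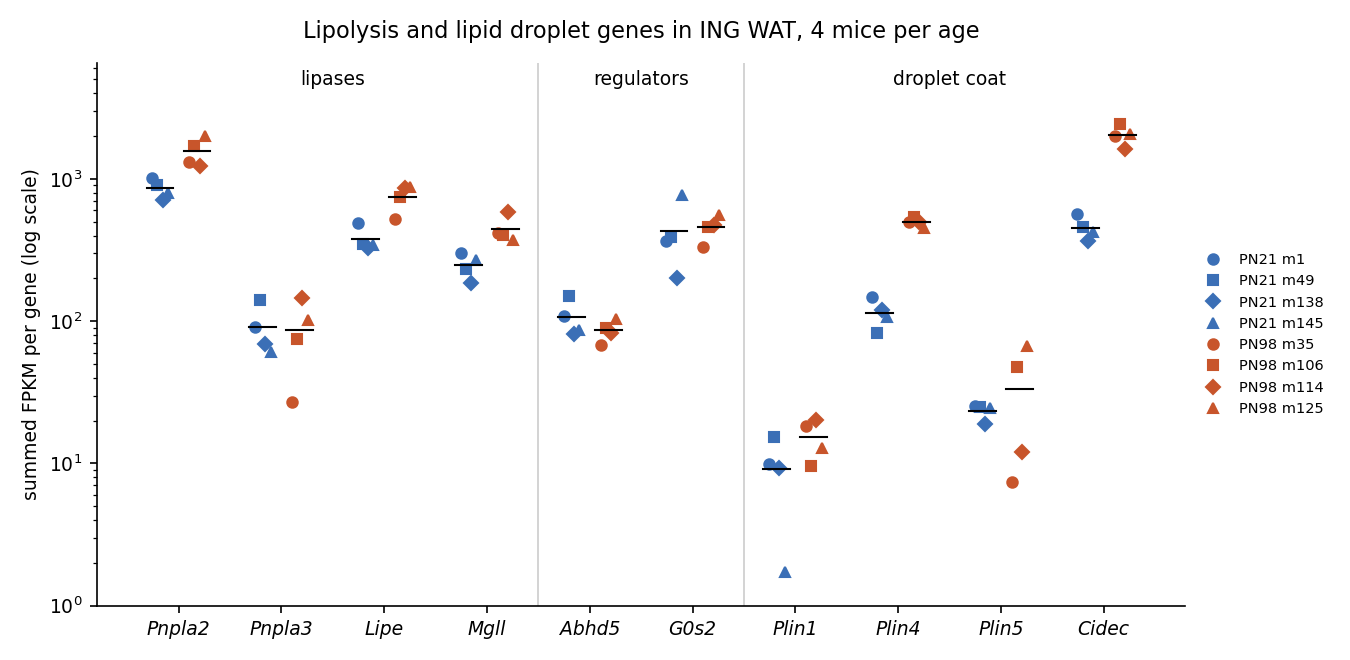
Summed FPKM (log axis) of the 10 genes in each mouse, blue for the 4 PN21 mice and orange for the 4 PN98 mice, with a black line at the mean of each age. The ages do not overlap for *Pnpla2*, *Lipe*, *Mgll*, *Plin4* and *Cidec*, and *Plin5* spreads from 7.38 to 67.4 at PN98.

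The libraries differed in ways that touch these values. Summed FPKM of nuclear genes ran from 917081 to 1201770 at PN21 and from 812788 to 987238 at PN98, and without read counts in the files neither depth nor counting error can be stated. The median log2 fold change of all genes tested was −0.21 on the deposited scale, −0.02 when mice were scaled by the median of ratios and 0.01 when they were scaled to nuclear genes. Adipocyte markers were present in every mouse, with a summed FPKM of 4292 to 10058 at PN21 and 8872 to 17704 at PN98. Of these 5 markers *Adipoq* (adiponectin) rose (log2 fold change 1.44, adjusted p = 0.0111 from limma), whereas *Pparg* had a log2 fold change of −0.26. In all, 4 of the 5 were above 0 and 1 below, and 2 were higher at an unadjusted p under 0.05. The 7 skeletal muscle markers with values summed to 8.09 to 391.0 FPKM at PN21 and 391.9 to 2521 at PN98, and 2 of them, *Atp2a1* and *Tcap*, rose. All 7 were higher at an unadjusted p under 0.05, and in 6 the ages did not overlap. The 8 lymphocyte markers summed to 429 to 1018 FPKM at PN21, to 19.6 to 181 in 3 PN98 mice and to 943 in m35, and 0 of the 8 passed the test in limma (4 were lower at an unadjusted p under 0.05). The 6 macrophage markers summed to 393 to 657 FPKM at PN21 and 176 to 803 at PN98, with 0 called (1 higher at an unadjusted p under 0.05). The 7 brown adipocyte markers summed to 2640 to 5842 FPKM at PN21 and 320 to 3188 FPKM at PN98, lowest in m35, with 0 called (3 lower at an unadjusted p under 0.05). The 6 epithelial markers summed to at most 27.2 FPKM, with *Krt14* at 0 in all PN98 mice, and *Epcam* fell (3 of the 4 tested were lower at an unadjusted p under 0.05). The Y-linked genes *Ddx3y*, *Eif2s3y*, *Kdm5d* and *Uty* were present in all 8 mice, and *Xist* stayed below 1 FPKM in each. The part of any of these markers in the members' values was not tested.

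For the 2 members with the largest difference, *Plin4* and *Cidec*, the 250 bases before the RefSeq start nearest to the main transcript are shown (GRCm38.p6, the build of the files), so that the promoters of both can be compared. Capitals mark matches on either strand to AGGTCA (half-site of nuclear receptors), to the CCAAT box, to TATAAA (the TATA box), to TGACG (half-site of the cAMP response element) or to GGGCGG (the GC box). No match overlapped another in these stretches.
*Plin4*, chr17:56109783-56110032, minus strand: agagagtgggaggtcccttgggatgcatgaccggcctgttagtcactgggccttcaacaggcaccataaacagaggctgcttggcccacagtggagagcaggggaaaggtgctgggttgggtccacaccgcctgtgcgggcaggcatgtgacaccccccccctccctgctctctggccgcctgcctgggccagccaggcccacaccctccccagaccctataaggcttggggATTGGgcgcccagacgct
*Cidec*, chr6:113435761-113436010, minus strand: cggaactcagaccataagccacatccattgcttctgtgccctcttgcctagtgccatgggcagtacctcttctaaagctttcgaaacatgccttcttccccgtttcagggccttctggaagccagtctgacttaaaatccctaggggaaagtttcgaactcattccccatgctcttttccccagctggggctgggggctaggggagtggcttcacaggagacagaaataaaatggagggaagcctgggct
The *Plin4* stretch held 1 match, to the CCAAT box on the other strand, and the *Cidec* stretch held none of the 5 motifs. Among all 32851 promoters of the reference 33.8% held CCAAT in these 250 bases, 32.7% GGGCGG, 17.8% TGACG, 14.0% AGGTCA and 12.4% TATAAA. Of the 10 members 3, 5, 3, 2 and 0 did, respectively. AGGTCA occurred once each in the stretches of *Abhd5* and *Plin5*.

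Of the lipases, *Pnpla2* had the highest level. The gene lies on chromosome 7 (141455198 to 141460743, plus strand, GRCm38). Its summed FPKM was 1011, 911, 714 and 794 at PN21 (m1, m49, m138, m145) and 1316, 1700, 1233 and 2005 at PN98 (m35, m106, m114, m125). Every PN98 mouse thus lay above every PN21 mouse. From PN21 to PN98 the log2 fold change was 0.85 (standard error 0.21, 95% interval 0.38 to 1.32), and the adjusted p of 0.0536 from limma missed the threshold.

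*Lipe*, on the minus strand of chromosome 7 (25379527 to 25398710), rose at PN98. It had 487, 349, 326 and 341 FPKM at PN21 and 524, 748, 856 and 872 FPKM at PN98 (order of mice as above). The lowest PN98 value, in m35, was close to the highest PN21 value, in m1. On the log2 scale the difference was 0.99 with a standard error of 0.22 (adjusted p = 0.0423 from limma). This call was lost when any single mouse other than m35 was left out, with adjusted p-values of 0.0557 to 0.121, and was kept without m35 (0.0114). All genes called numbered 191 to 567 in the former settings and 3588 without m35, against 844 with all mice. The call was also lost with pseudocount 0.1 (adjusted p = 0.0528 from limma), without a filter (0.0510), with an intensity trend (0.0512) and after scaling to adipocyte markers (0.256). The antisense gene *4732471J01Rik*, which the deposited row lists together with *Lipe*, had 2.83 to 22.1 FPKM and is not in the sum.

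*Mgll*, on chromosome 6 (88724412 to 88828360, plus strand), had 301, 233, 185 and 271 FPKM at PN21 and 418, 403, 589 and 374 FPKM at PN98. The ages did not overlap. The log2 difference was 0.85 (standard error 0.21, 95% interval 0.36 to 1.34, adjusted p = 0.0606 from limma). Without m35 both *Mgll* (adjusted p = 0.0405 from limma) and *Pnpla2* (adjusted p = 0.0269) passed. In that setting 3588 of all 16094 genes passed, against 844 with all mice.

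*Pnpla3*, on chromosome 15 (84167837 to 84187236, plus strand), had 91.1, 142, 68.6 and 60.4 FPKM at PN21 and 27.2, 74.6, 145.4 and 101 FPKM at PN98. The PN98 mice enclosed the range of the PN21 mice, with m35 lowest and m114 highest. Its log2 fold change was −0.20 (95% interval −1.37 to 0.96, adjusted p = 0.813 from limma), which leaves differences of either sign possible. A transcript that the deposited row lists under *Pnpla3* belongs to the microRNA gene *Mir6392* in GENCODE. Its hairpin of 108 bases lies inside *Pnpla3* on the same strand and overlaps none of its annotated exons. The hairpin is printed from RefSeq to show how short this feature is, with both mature arms in capitals.
*Mir6392*, chr15:84168270-84168377, plus strand: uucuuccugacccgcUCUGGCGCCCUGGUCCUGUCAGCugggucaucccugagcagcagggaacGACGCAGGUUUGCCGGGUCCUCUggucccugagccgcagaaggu
This transcript had 148 to 484 FPKM at PN21 and 37.3 to 295 FPKM at PN98, a higher FPKM than the coding transcript of *Pnpla3* in each mouse except m125. As FPKM divides by length, a few fragments on so short a feature can give a high value. The higher FPKM thus does not show that the microRNA exceeds the mRNA of *Pnpla3*. Adding this transcript to *Pnpla3* gave a log2 fold change of −0.88 (adjusted p = 0.343 from limma), still not called.

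The regulators of ATGL overlapped between the ages. *Abhd5* (chromosome 9, 122351608 to 122381524, plus strand) had 109, 151, 81.1 and 86.5 FPKM at PN21 and 68.4, 90.2, 82.4 and 104 FPKM at PN98. The log2 fold change was −0.28 (95% interval −0.82 to 0.26, adjusted p = 0.461 from limma). *G0s2* (chromosome 1, 193272161 to 193273217, minus strand) had 364, 391, 199 and 776 FPKM at PN21 and 334, 457, 477 and 560 FPKM at PN98. The PN21 mice enclosed all PN98 mice, and m145 and m138 were the extremes. The log2 fold change of 0.22 had a 95% interval of −0.66 to 1.10 (adjusted p = 0.725 from limma).

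Among the droplet coat genes, *Cidec* and *Plin4* rose. *Cidec* (chromosome 6, 113424634 to 113435760, minus strand) had 566, 462, 364 and 427 FPKM at PN21 and 2008, 2443, 1613 and 2053 FPKM at PN98. The lowest PN98 mouse was thus far above the highest PN21 mouse. This is a log2 fold change of 2.16 (95% interval 1.71 to 2.60, standard error 0.19, adjusted p = 0.00223 from limma). *Plin4* (chromosome 17, 56100591 to 56109803, minus strand) had 148, 82.8, 120 and 106.2 FPKM at PN21 and 495, 538, 495 and 448 FPKM at PN98. The PN98 mice were close to each other, with an SD of 36.8 around a mean of 494 (n = 4). Between the ages the log2 fold change was 2.13 (standard error 0.19, 95% interval 1.69 to 2.58, adjusted p = 0.00239 from limma). Both genes passed the test under each of the 18 alternatives tried, the 8 that leave out 1 mouse included. Among the 18, the sum of *Pnpla3* with *Mir6392* changes the values of *Pnpla3* only and is no test of other genes.

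*Plin5* (chromosome 17, 56111601 to 56117596, minus strand) differed in its spread between mice, and not beyond that spread between the ages. The PN21 mice had 25.2, 24.8, 18.9 and 24.5 FPKM. The PN98 mice had 7.38, 47.3, 12.01 and 67.4 FPKM. The SD was 2.98 FPKM at PN21 and 28.7 FPKM at PN98 (n = 4 each), 2 PN98 mice lying below and 2 above all PN21 mice. The log2 fold change of 0.02 (95% interval −1.45 to 1.48, adjusted p = 0.988 from limma) is therefore an average over mice that lay on both sides.

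The PN98 mice took the same order in *Plin5*, in *Cidea* (a droplet protein of brown fat) and in 4 of 7 listed brown fat markers (*Ucp1*, *Cox7a1*, *Cox8b* and *Ppargc1a*), namely m35, m114, m106 and m125 from low to high. The other markers broke it: *Elovl3* had 55.9 FPKM in m106 and 54.1 in m125, *Otop1* 26.2 and 23.4, and *Dio2* was lower in m125 (0.437) than in m114 (0.673). *Cidea* had 55.2, 187, 721 and 1064 FPKM in this order, against 405 to 631 FPKM at PN21. *Ucp1*, the uncoupling protein, had 7.41, 56.3, 278 and 356 FPKM, against 544 to 650 FPKM at PN21. *Plin5* and *Cidea* in m106 and m125 were thus above all PN21 mice, whereas *Ucp1* was below all PN21 mice in every PN98 mouse. The log2 fold change was −0.67 for *Cidea* (adjusted p = 0.619 from limma) and −2.81 for *Ucp1* (adjusted p = 0.149). This order was not particular to brown fat genes. *Abhd5*, the adipocyte marker *Pparg* and the carboxylesterases *Ces1d* and *Ces1f* took it too, whereas *Lipe* and *Pnpla2* did not. The order over 4 mice is given as a description, and *Cidea* was set beside *Plin5* after its values were seen.

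**Figure D2:**
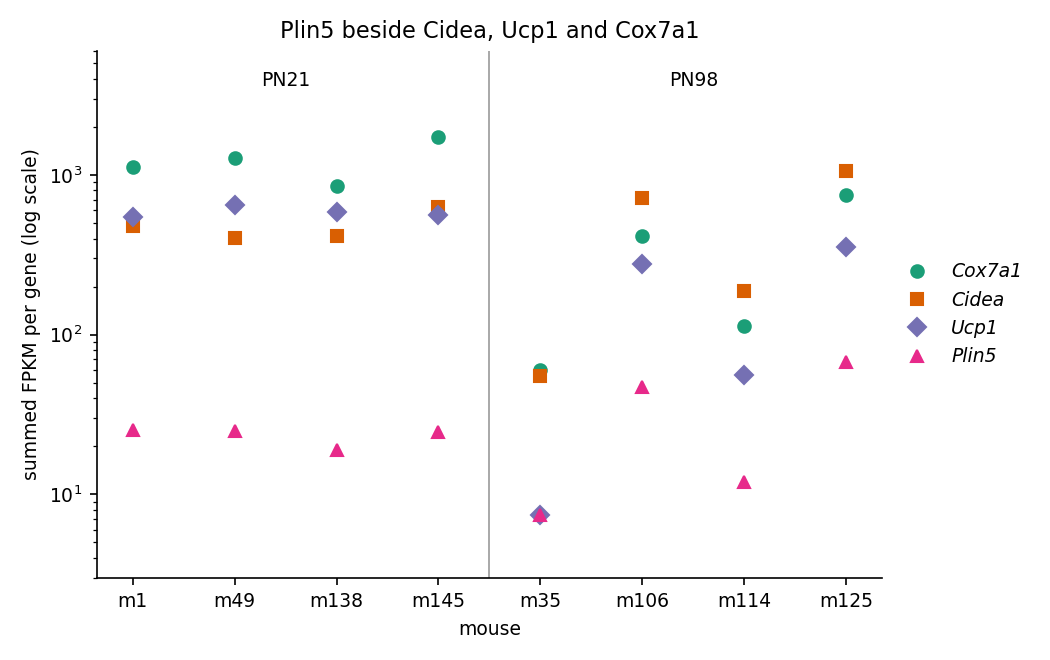
Summed FPKM (log axis) of *Plin5*, *Cidea*, *Ucp1* and *Cox7a1* in each of the 4 PN21 mice and the 4 PN98 mice, a symbol and colour for each gene. The 4 genes plotted share the order m35, m114, m106, m125 at PN98, which *Elovl3*, *Otop1* and *Dio2* of the 7 brown fat markers did not take. Genes that are not brown fat markers, such as *Abhd5* and *Pparg*, took it too. *Plin5* runs from 7.38 to 67.4 FPKM.

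*Plin1* (chromosome 7, 79720218 to 79732903, minus strand) is represented by 1 of its 7 annotated transcripts, so that its level is not that of the whole gene. This transcript had 9.91, 15.4, 9.33 and 1.73 FPKM at PN21 and 18.2, 9.63, 20.2 and 12.9 FPKM at PN98. The ages overlapped, m145 being the lowest. The log2 fold change was 0.89 (95% interval −0.33 to 2.11, adjusted p = 0.297 from limma), and ratios to *Plin1* below carry the same limit.

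FPKM is per length, so that levels can be ordered across genes. At PN21 the order was *Pnpla2* (858 ± 130, SD, n = 4), *Cidec* (455 ± 84.4), *G0s2* (433 ± 244), *Lipe* (376 ± 74.8), *Mgll* (247 ± 50.2), *Plin4* (114.1 ± 27.1), *Abhd5* (107 ± 31.9), *Pnpla3* (90.5 ± 36.5), *Plin5* (23.3 ± 2.98) and *Plin1* (9.10 ± 5.63). Neighbours whose ranges overlapped were *Cidec* and *G0s2*, *G0s2* and *Lipe*, *Plin4* and *Abhd5*, and *Abhd5* and *Pnpla3*. At PN98 *Cidec* stood first (2029 ± 339), ahead of *Pnpla2* (1564 ± 358), with overlapping ranges. *Plin4* (494 ± 36.8) stood between *Lipe* (750 ± 160) and *G0s2* (457 ± 93.5), and its range overlapped both. *Mgll* (446 ± 96.8), *Pnpla3* (87.1 ± 49.5), *Abhd5* (86.4 ± 15.01), *Plin5* (33.5 ± 28.7) and *Plin1* (15.2 ± 4.86) followed, and ranges overlapped between *G0s2* and *Mgll*, *Pnpla3* and *Abhd5*, and *Plin5* and *Plin1*. The sums hold all annotated transcripts for *Pnpla2*, *G0s2*, *Plin5* and *Cidec*, and part of them for the other genes (4 of 8 for *Lipe*, 7 of 10 for *Mgll*, 6 of 8 for *Abhd5*, 1 of 2 each for *Pnpla3* and *Plin4*, 1 of 7 for *Plin1*). The last place of *Plin1* is therefore that of 1 transcript and not of the whole gene. The places of *Pnpla2* and *Abhd5* are those of sums that include transcripts annotated as targets of nonsense-mediated decay. The 10 genes together held 0.2197% to 0.339% of the summed nuclear FPKM at PN21 and 0.528% to 0.812% at PN98.

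The size of these changes depended on what the mice were scaled to. With median of ratios scaling the log2 fold changes were 2.39 for *Cidec*, 2.36 for *Plin4*, 1.22 for *Lipe*, 1.08 for *Mgll* and 1.08 for *Pnpla2*, and *Mgll* also passed the test (adjusted p = 0.0305 from limma). When each mouse was scaled to its mean log2 level of the 5 adipocyte markers, the median of all genes was −0.85, and 0.348% of genes were called higher and 18.3% lower. On this scale *Cidec* (1.52, adjusted p = 0.0255 from limma) and *Plin4* (1.49, adjusted p = 0.0325) still rose. *Lipe* had 0.35 (adjusted p = 0.256), *Pnpla2* 0.21 (adjusted p = 0.488) and *Mgll* 0.21 (adjusted p = 0.545), none of which passed. *Abhd5* was called lower (−0.92, adjusted p = 0.0451), 1 of 10 members against the 18.3% of all genes, and lay close to the median of all genes. *G0s2* had −0.42 and *Pnpla3* −0.84, neither of which passed.

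**Figure D3:**
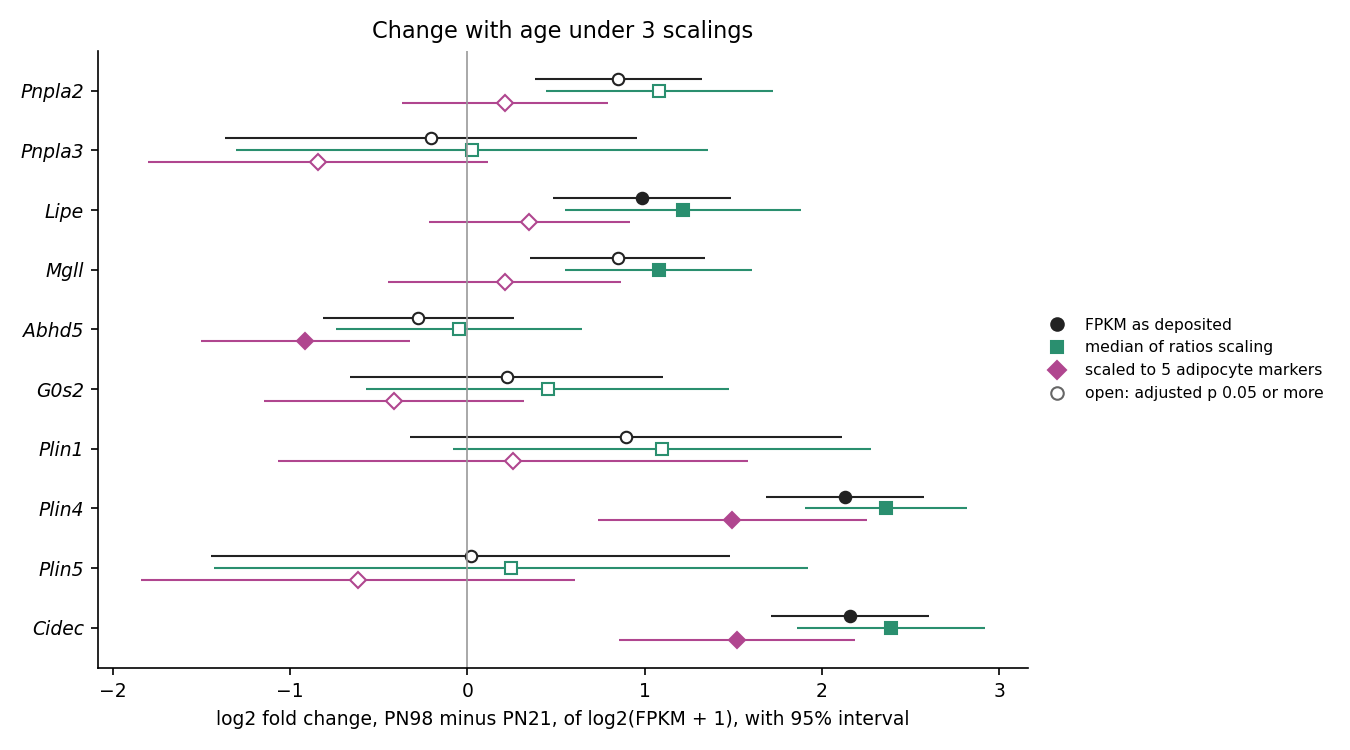
Log2 fold change from PN21 to PN98 on the log2(FPKM + 1) scale with its 95% interval, for the deposited FPKM, for median of ratios scaling and for scaling to 5 adipocyte markers, filled where the adjusted p was under 0.05. *Cidec* and *Plin4* are filled under all 3 scalings, *Lipe* under 2 and *Abhd5* only after scaling to adipocyte markers.

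Ratios within a mouse hardly depend on its scaling, apart from the pseudocount. Log2 ratios of 8 pairs were tested by two-sided exact permutation of the ages over the 8 mice, whose smallest possible p is 0.0286. *Pnpla2* over *Abhd5*, the lipase over its activator, was 3.201, 2.58, 3.12 and 3.18 at PN21 and 4.25, 4.22, 3.89 and 4.25 at PN98. Both sums include transcripts annotated as targets of nonsense-mediated decay, whose shares are given below. All PN98 mice lay above all PN21 mice, and the ratio was 2.19-fold higher (exact permutation test, p = 0.0286, adjusted p = 0.229 over the 8 ratios). It was the only one of the 8 ratios whose ages did not overlap or whose unadjusted p was under 0.05, and 0 of the 8 passed the adjustment. A single ratio at the smallest possible p of 0.0286 cannot pass an adjustment over 8, so that this failure carries no information about it. *Pnpla2* over its inhibitor *G0s2* was 1.14 ± 0.78 at PN21 and 1.77 ± 0.27 at PN98 (SD, n = 4, exact permutation test, p = 0.143). The ratios of successive lipases overlapped between the ages, *Lipe* over *Pnpla2* being −1.20 ± 0.14 and −1.06 ± 0.36 (exact permutation test, p = 0.686, n = 4 each) and *Mgll* over *Lipe* −0.60 ± 0.21 and −0.74 ± 0.39 (exact permutation test, p = 0.6, n = 4 each). *Pnpla3* over *Pnpla2* differed by −1.05 (exact permutation test, p = 0.114), *Cidec* over *Plin1* by 1.26 (p = 0.143), *Plin4* over *Plin1* by 1.24 (p = 0.114) and *Plin5* over *Plin1* by −0.88 (p = 0.4).

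**Figure D4:**
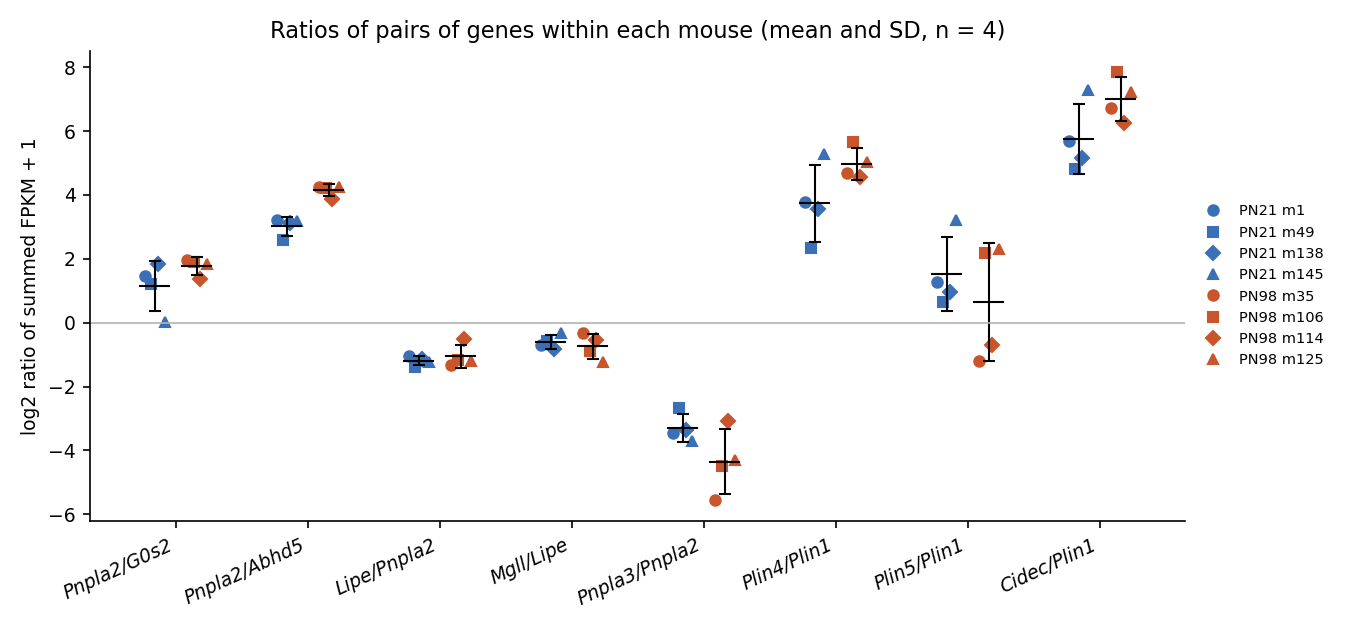
Log2 ratio of summed FPKM + 1 for 8 pairs of genes in each mouse (blue PN21, orange PN98), with the mean and SD of 4 mice in black. *Pnpla2*/*Abhd5* is the pair whose ages do not overlap, at 2.58 to 3.201 and 3.89 to 4.25.

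Single transcripts were tested by limma on log2 FPKM, with no pseudocount, for the 23151 transcripts above 0 in all mice and with a mean above 2 at either age. Of the 34 member transcripts 25 were tested, and 2 rose, against 0.708% of all transcripts tested that rose. These were the main transcript of *Cidec*, ENSMUST00000032416 (log2 fold change 2.19, adjusted p = 0.00623 from limma), and the transcript of *Plin4*, ENSMUST00000002908 (2.14, adjusted p = 0.00898). The main transcript of *Lipe*, ENSMUST00000054301, did not pass at this level (0.99, adjusted p = 0.0910), and neither did that of *Mgll*, ENSMUST00000113585 (0.83, adjusted p = 0.117). The division of a gene's fragments among overlapping transcripts is an estimate and less certain than their sum.

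The main transcript of *Cidec* held 72.4% of the sum at PN21 and 73.7% at PN98. For *Pnpla2*, transcript ENSMUST00000026583, annotated as a target of nonsense-mediated decay, had 375, 377, 305 and 170 FPKM at PN21 and 569, 991, 538 and 823 FPKM at PN98 (log2 fold change 1.27, adjusted p = 0.115 from limma). Its share of the sum was 35.7% at PN21 and 46.6% at PN98. The protein-coding transcript ENSMUST00000064151 had a share of 23.3% and 21.3% and a log2 fold change of 0.70 (adjusted p = 0.158). Another decay-class transcript, ENSMUST00000164924, had 319 ± 101 FPKM at PN21 and 373 ± 158 FPKM at PN98 (SD, n = 4). Its share was 36.9% at PN21 and 23.7% at PN98. For *Abhd5* the decay-class transcript ENSMUST00000035128 held 55.7% of the sum at PN21 and 54.8% at PN98. A further decay-class transcript of *Abhd5*, ENSMUST00000175973, held 11.5% and 15.4%. In *Plin5* the transcript ENSMUST00000019808 held 64.5% of the sum at PN21 and 85.9% at PN98. The other, ENSMUST00000113072, was below 0.1 FPKM in PN21 mouse m145 and in PN98 mice m114 and m125, and at 2.57 to 12.7 FPKM in the other 5 mice.

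**Figure D5:**
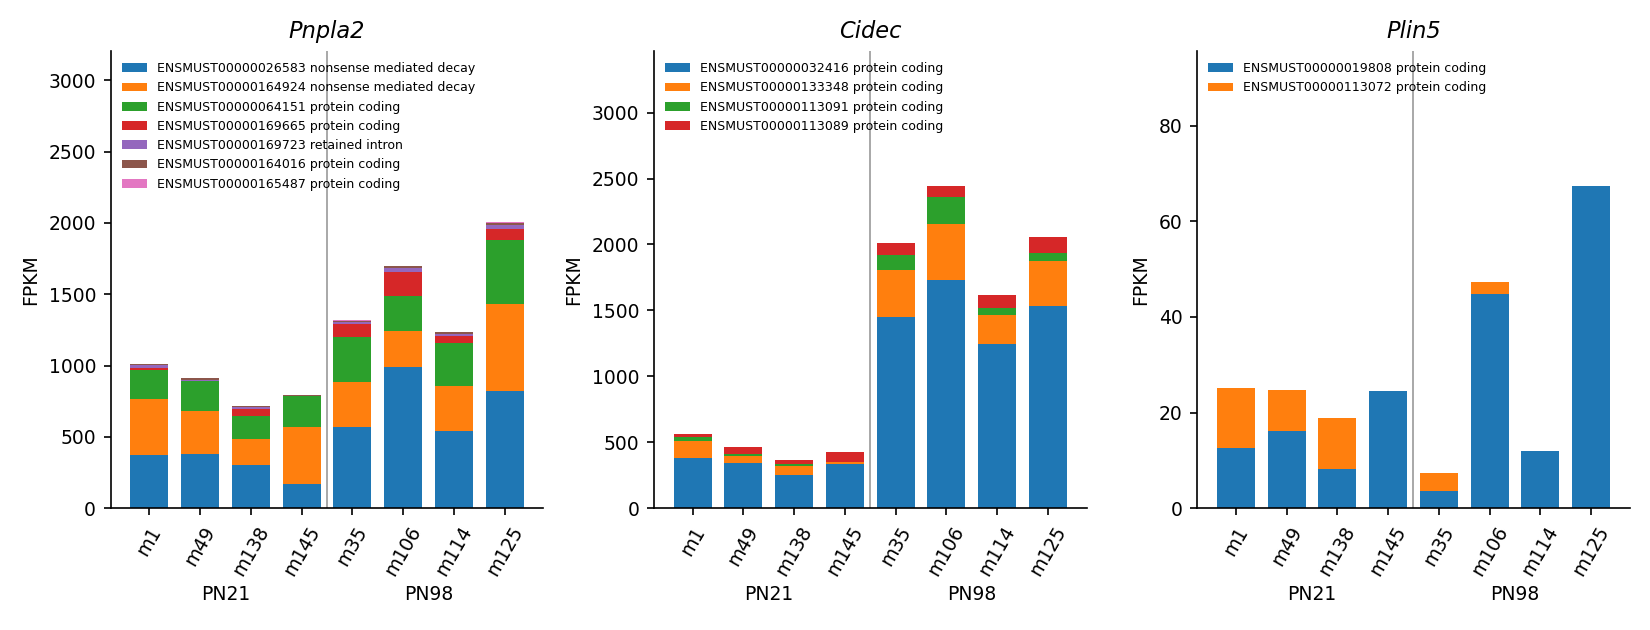
FPKM of each transcript of *Pnpla2*, *Cidec* and *Plin5*, stacked for the 4 PN21 and the 4 PN98 mice, with the transcript class of GENCODE beside each colour. The main *Cidec* transcript runs from 253 to 383 FPKM at PN21 and from 1244 to 1733 FPKM at PN98.

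Other genes of the pathway came from lists that were chosen with the members, with earlier results of these data known. Of 11 other ester hydrolases, 9 were tested and 2 rose. *Ces1d*, a carboxylesterase with triglyceride hydrolase activity, had 336, 377, 294 and 437 FPKM at PN21 and 818, 1159, 1032 and 1223 FPKM at PN98 (log2 fold change 1.55, adjusted p = 0.0066 from limma). *Ces1f*, a related carboxylesterase, had 27.7 to 42.1 FPKM at PN21 and 86.0 to 137.8 FPKM at PN98 (1.62, adjusted p = 0.00762). Both lay higher in every PN98 mouse than in any PN21 mouse and passed under all 18 alternatives. Their near-identical relatives could share fragments with them. The median of the 9 was 0.54, against −0.21 over all genes.

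Of 12 other droplet proteins, 10 were tested and 0 passed in limma, with a median log2 fold change of 0.43. The largest changes were those of *Plin2*, the perilipin of most cell types, at 0.73 (adjusted p = 0.263 from limma) and of *Cavin1*, a caveolar protein, at 0.72 (adjusted p = 0.158). *Plin2* had 415 to 874 FPKM at PN21 and 508, 1575, 963 and 1445 FPKM at PN98. At an unadjusted p under 0.05, 3 of the 10 were higher. In 1 of the 10, neither *Plin2* nor *Cavin1*, all PN98 mice lay above all PN21 mice, against 6.06% of all genes.

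Of 14 genes of the cAMP and protein kinase A chain, which turns on HSL and phosphorylates perilipin 1, 14 were tested and 1 rose. *Pde3b*, the phosphodiesterase through which insulin lowers cAMP in fat cells, had 34.2, 32.1, 36.1 and 23.0 FPKM at PN21 and 57.0, 125.01, 71.4 and 94.6 FPKM at PN98. The ages did not overlap and the log2 difference was 1.40 with a standard error of 0.27 (adjusted p = 0.0263 from limma). The median of the 14 was 0.09, 8 being above 0 and 6 below. *Pde3b* passed under 10 of 18 alternatives, with adjusted p-values up to 0.102 after scaling to adipocyte markers.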

How the data were processed

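Poly(A)+ RNA of ING WAT of 4 PN21 and 4 PN98 mice was sequenced from libraries that keep the strand. The authors mapped reads with STAR 2.3.0 and quantified transcripts with Cufflinks 2.1.1 on mm10 (GRCm38), with CASAVA 1.8.2 and FastQC named in the submitters' processing notes, and deposited 1 FPKM per transcript and mouse. Whether fragments were counted by strand is not given in the sources used here. Columns with the authors' own comparison were not used.

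Many deposited values lacked their decimal mark. Decimals were recovered with the standard deviation, average and score that the authors deposited for each transcript, in 40335 of 40380 transcripts concerned. The other 45 were left out, none of them a transcript of a member. Of the restored transcripts, 5008 also stand with intact decimals in another deposited table, and all 5008 were equal in all 8 mice.

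Transcripts were assigned to genes by GENCODE vM21 and FPKM was summed per gene. Genes whose mean FPKM reached 1 were compared with limma 3.58.1 (R 4.3.3) on log2(FPKM + 1), with Benjamini-Hochberg adjustment over all genes. Fold changes are on this scale, which understates low genes. Transcripts were compared on log2 FPKM, and ratios with an exact permutation test (scipy 1.17.1). The fit was tested on simulated data. Alternatives were other pseudocounts, filters and scalings, mouse weights, an intensity trend and leaving out each mouse. The sum of *Pnpla3* with *Mir6392* was added after seeing the data.

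The members and lists were chosen with earlier results of these data known. All 10 members are named. From each list of other pathway genes, those that passed the test are named, or else the 2 with the largest change. Values of *Acta1* were not analysed here.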

Additional observations from a re-analysis of the deposited data

Results flagged for a closer look

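In 36 groups of 4 mice (10 genes and 8 ratios at 2 ages), 4 held a mouse whose gap to its nearest neighbour was large against the range of the group by Dixon's criterion, a criterion that chance meets in about 1 of 20 groups. *Lipe* in PN21 mouse m1 was 487 FPKM, above the other PN21 mice. *Plin5* in PN21 mouse m138 was 18.9 FPKM, below the other PN21 mice. The log2 ratio of *Pnpla2* to *Abhd5* was 2.58 in PN21 mouse m49 and 3.89 in PN98 mouse m114, each the lowest of its age. Leaving out any 1 mouse left this ratio 0.98 to 1.22 higher at PN98.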

How the results depend on the processing

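*Cidec* and *Plin4*, and *Ces1d* and *Ces1f* among the other genes, passed the test under all 18 alternatives to the gene level comparison, *Lipe* under 7, *Mgll* under 5 and *Pnpla2* under 4. These 18 include the sum of *Pnpla3* with *Mir6392*, which leaves the values of genes other than *Pnpla3* as they were. Members called higher numbered 3 as reported, 5 with pseudocount 5, scaling to nuclear genes and mouse weights, and 4 with median of ratios scaling. They numbered 2 with pseudocount 0.1, without a filter and with an intensity trend, and 2 to 5 when 1 mouse was left out (5 without m35). Calls over all genes were 835 with pseudocount 5, 729 with pseudocount 0.1, 1001 of 27456 without a filter and 854 with an intensity trend. After scaling to adipocyte markers 2 were called higher and 1 lower (*Abhd5*), where 0.348% of all genes were called higher and 18.3% lower. Of the other pathway genes, 5 were called with pseudocount 5, without a filter, after scaling to nuclear genes and with an intensity trend, 6 with median of ratios scaling, 11 with mouse weights and 2 to 9 when 1 mouse was left out (9 without m35). All genes called numbered 844, against 537 with a mean FPKM of at least 5, 1212 with median of ratios scaling (753 higher and 459 lower, against 375 and 469 as reported), 794 after scaling to nuclear genes (532 and 262), 2999 after scaling to adipocyte markers (56 and 2943), 4625 with mouse weights (1148 and 3477) and 191 to 3588 when 1 mouse was left out (191 without m106, 3588 without m35). The cause of these changes was not tested.

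Among genes that were not called, the sign changed for *Pnpla3* with median of ratios scaling (0.0267) and scaling to nuclear genes (0.0612), for *Plin5* with pseudocount 0.1 (−0.0060) and scaling to adipocyte markers (−0.62), and for *G0s2* with the latter (−0.42). Leaving out 1 mouse gave −0.52 to 0.27 for *Pnpla3*, −0.48 to 0.53 for *Plin5* and −0.095 to 0.56 for *G0s2*. The log2 ratio of *Lipe* to *Pnpla2* differed by −0.28 when the transcript with the highest mean was used and by −0.0415 to 0.23 without 1 mouse, and that of *Mgll* to *Lipe* by −0.28 to 0.0189. With 7 mice the exact permutation test cannot give a p below 0.0571. No paired analysis was possible because the labels give mouse names and no replicate numbers, and nothing ties a PN21 mouse to a PN98 mouse. Depth is unknown, since the files hold no read counts.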
